A study of Gallus gallus with 16 samples.

Results

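Steps that make a fatty acid, lengthen it and join it to coenzyme A were followed here in abdominal fat of chickens through 5 genes, ACACA, SLC25A1, PTPLA, ACSL1 and ACSL5. They were the rows of the deposited count table, out of 17854 loci, that carry the Ensembl identifiers the study's own list of differentially expressed genes gives for these symbols. All 5 had a row, and the quantification was marked OK for each of them in both lines. Because that list was drawn from the same birds, the direction of a gene's difference is not independent evidence, and the values are given as measurements.

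The birds were Bresse-Pile (meat-type) cockerels of 2 lines divergently selected on body weight at a juvenile and an adult age, high growth (HG) and low growth (LG). All were sampled in the fed state at 7 wk. Both lines received the same starter and grower rations, but LG chicks were kept apart with crushed pellets early in life before the lines were penned together. The libraries came from 4 HG and 4 LG birds, each sequenced in 2 lanes, which gives 16 labelled samples. In the count table, the 4 birds of a line share a single estimated number of fragments per gene and a variance from the quantification model. The value of a single bird was therefore not analysed here and a difference has no replicate check in these counts. The line of each sample was read from its title, since another label says HG for all 16.

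In animal cells, mitochondrial citrate leaves through the citrate carrier and is cleaved to acetyl-CoA in the cytosol. Acetyl-CoA carboxylase turns this into malonyl-CoA, the committed step, and fatty acid synthase builds palmitate from it. Longer chains are made in the endoplasmic reticulum by a cycle of condensation, reduction, dehydration and reduction, and every free fatty acid must be joined to coenzyme A by an acyl-CoA synthetase before it can be stored or burned. In birds most of this synthesis is known to take place in the liver, while fat tissue takes up and stores the product.

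Of the 5 genes, 4 had the higher count in HG and 1, ACSL5, in LG, while 75.3% of all loci tested were higher in HG, so the split is near the background. ACACA was the 1 member that passed the test across all loci with the counts as deposited, with 2.16 times as many fragments in HG. ACSL1, the gene of the group with by far the most fragments, stood at 2.03 times the LG count, SLC25A1 at 1.66 times and PTPLA at 9.66 times, the last on very few fragments. ACSL5 went the other way, with 1.82 times as many fragments in LG. A locus was said to pass when its fold was at least 1.2 and its adjusted p (Benjamini-Hochberg, over all loci tested) no more than 0.05, from the log ratio over a standard error built on the deposited variances. Of the 10484 loci tested, 2.93% passed. On the log2 scale the middle HG/LG ratio of the 5 genes was 1.02, against 0.26 for all loci tested. The 5 came from the study's list of differing genes, so that gap is no support and 0.26 is printed for scale. Since the median locus was itself higher in HG, each ratio was also read after centring on that median, and no member passed then (background 2.18%).

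**Figure D1:**
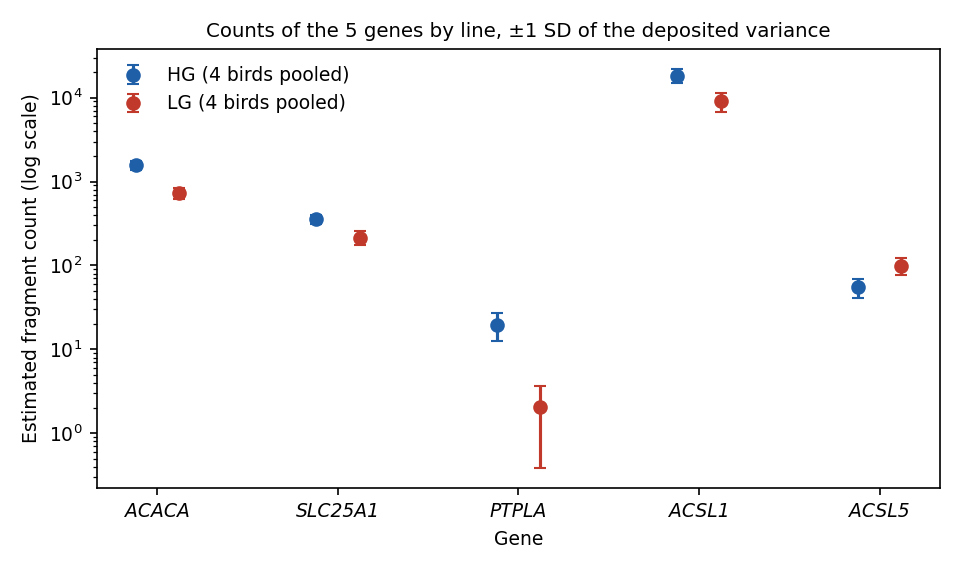
Estimated fragment counts (log scale) of the 5 genes in HG (blue) and LG (red), each a single value over 4 birds, with bars of 1 SD from the deposited variance. The HG point lies above the LG point for ACACA (1576 against 729), SLC25A1, PTPLA and ACSL1, and below it for ACSL5 (55.0 against 99.9).

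SLC25A1, the mitochondrial citrate carrier that exports the carbon for fatty acid synthesis, is the first step. Its count was 357 in HG with a deposited SD of 46.6, and 215 in LG with an SD of 40.3. The log2 HG/LG ratio was 0.73 (95% interval 0.08 to 1.37), and 0.46 (95% interval -0.18 to 1.11) relative to the median locus. SLC25A1 did not pass, and its interval includes 0 once the ratio is centred. It was thus the member nearest to the median locus, although 87.1% of the loci tested had a lower ratio. The SD was 13.1% of the count in HG and 18.7% in LG.

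ACACA encodes acetyl-CoA carboxylase alpha, the cytosolic enzyme whose malonyl-CoA feeds fatty acid synthase. Its count was 1576 in HG (SD 186) against 729 in LG (SD 112). The log2 ratio was 1.11 (95% interval 0.56 to 1.66), and 95.3% of the loci tested had a lower one. By the size of the log ratio over its standard error, ACACA ranked 157 of the 10484. The centred log2 ratio was 0.85 (95% interval 0.30 to 1.40), which excludes 0 but did not pass across all loci. The smallest ratio that passed in these data was 3.18 standard errors from 0, so a gene with the precision of ACACA passed from a fold of 1.86 upward.

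ACACA is also the member for which the study designed a quantitative PCR assay. By its own RNA-Seq analysis of the same birds the paper calls ACACA higher in HG. Its fold there is smaller than the deposited counts gave before centring. By the quantitative PCR assay it gives ACACA as higher in HG, but just short of the significance level it had set. The primer pair defines the piece of the transcript that was amplified there and is shown to identify the target. It is printed 5′ to 3′ from the study's primer list.
ACACA forward: aggagggaagggaattaggaaa
ACACA reverse: gatcggagagcctgggactt

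Biotin must be attached to acetyl-CoA carboxylase before it works, and HLCS, holocarboxylase synthetase, does this. Its count was 1080.1 in HG against 556 in LG, and the log2 ratio was 0.96 (95% interval 0.39 to 1.52). Like ACACA, it passed with the deposited counts and not after centring. Unlike ACACA, it also did not pass with Poisson variance added or at a fold minimum of 2. The log2 ratio of ACACA exceeded that of HLCS by 0.15, with a 95% interval of the difference from -0.63 to 0.94. MECR, the last reductase of the separate fatty acid synthesis pathway of mitochondria, was counted at 35.7 in HG against 49.6 in LG and did not pass, at a log2 ratio of -0.47 (95% interval -1.64 to 0.71).

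PTPLA, now called HACD1, is a 3-hydroxyacyl-CoA dehydratase and carries out the dehydration step of chain elongation. The count was 19.7 in HG (SD 7.20) against 2.04 in LG (SD 1.65). The log2 ratio with a pseudocount of 1 was 2.77 (95% interval 0.94 to 4.59). Without a pseudocount it was 3.27 (95% interval 0.76 to 5.78). The fold of 9.66 without a pseudocount fell to 2.47 with a pseudocount of 10, so the size of the difference is poorly fixed. PTPLA reached the count minimum of 10 only through HG, the line in which it was high, and did not pass either before or after centring. At its precision a fold of 16.9 would have been needed.

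In mammals HACD1 is known as an enzyme of skeletal and cardiac muscle. Of 12 skeletal muscle markers, 6 could be named in the table, all through the study's own list of called genes. Their summed count was 1428 in HG and 534 in LG. The 4 that were tested had log2 ratios from 1.12 for ACTA1 to 5.01 for ACTN2. ACTN2, TNNI2 and MYOM2 reached the count minimum only through HG, so their direction was largely set by that filter and is no support. MYOM2, which links thick filaments in muscle, was the 1 of the 4 that passed, before and after centring, against 2.07% and 0.992% of all loci higher in HG. MYBPC1 was listed at 0 in LG against 83.8 in HG. TNNC2 was listed at 0 in both lines, as were DGAT2 and IDH2, which fat is known to express. The paper gives TNNC2 and DGAT2 as higher in HG by RNA-Seq of these birds. A listed 0 may thus be a failed estimate and does not show that a transcript was missing. The log2 ratio of PTPLA lay 1.65 above that of ACTA1 (95% interval of the difference -0.31 to 3.61) and differed from that of MYOM2 by -0.97 (95% interval -3.45 to 1.52). The part of muscle RNA in the PTPLA count was not tested.

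Activation of long chain fatty acids was represented by 2 isoforms of acyl-CoA synthetase, which differed in level and in direction. ACSL1, the main isoform of mammalian fat cells, was counted at 18328 in HG (SD 3497) against 9011 in LG (SD 2272). It made up 0.415% of all fragments counted in HG and 0.268% in LG. The log2 ratio was 1.02 (95% interval 0.13 to 1.92), or 0.76 (95% interval -0.13 to 1.66) after centring. In spite of its high count ACSL1 did not pass. Its deposited SD was 19.1% of the count in HG and 25.2% in LG, against 11.8% and 15.4% for ACACA. A fold of 2.74 would have been needed to pass. These SDs come from the quantification model and do not show that ACSL1 varied more between birds than ACACA.

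ACSL5, an isoform known in mammals from intestine and liver and from the outer mitochondrial membrane, was counted at 55.0 in HG (SD 14.3) against 99.9 in LG (SD 23.6). Its log2 ratio was -0.85 (95% interval -1.83 to 0.13), and only 4.86% of the loci tested had a lower one. After centring it was -1.11 (95% interval -2.09 to -0.13), so that the interval excludes 0 relative to the median locus. ACSL5 did not pass under either scaling. Of the 20 hepatocyte markers on the list, 1 could be named in the table. The other 19 had no row that could be matched to a symbol and were not analysed here. The paper places several of these, ALB and FGA among them, with its RNA-Seq genes most strongly higher in LG. The 1 named marker was SERPINC1, antithrombin, counted at 4.4 in HG against 64.7 in LG. Its log2 ratio of -3.61 (95% interval -6.37 to -0.84) did not pass, and it reached the count minimum only through LG. Its direction was largely set by that filter, so its lying on the same side as ACSL5 is no support. The part of liver-type RNA in the ACSL5 count was not tested. The genes of the intestinal and other epithelium list could not be named and were not analysed here.

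**Figure D2:**
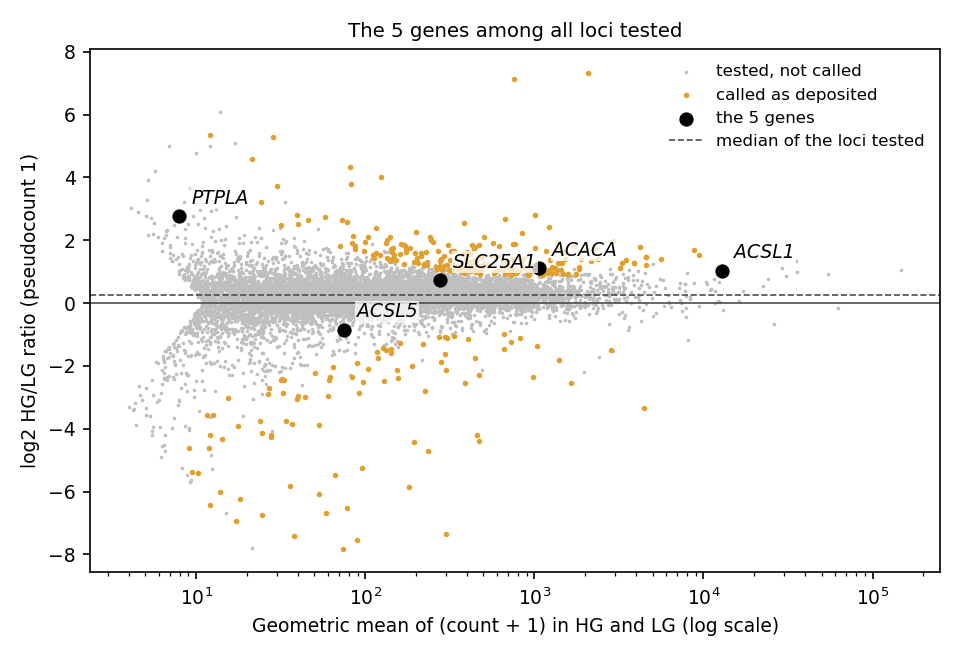
The log2 HG/LG ratio (pseudocount 1) of every locus tested against the geometric mean of its 2 counts plus 1 (log scale), with loci that passed as deposited in orange, the other loci in grey and the 5 genes in black. ACACA (1.11) sits at the edge of the orange band, while PTPLA, SLC25A1, ACSL1 and ACSL5 (-0.85) lie among loci that did not pass. The dashed line is the median of the loci tested, 0.26.

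Without a pseudocount, the difference between the ratios of a pair of genes would not depend on how the lines were scaled. With a pseudocount of 1 this holds closely, except at low counts such as those of PTPLA. The difference was therefore taken for the 10 pairs of members. At a pseudocount of 1, intervals of these differences excluded 0 in 5 pairs, and in 7 with the deposited variance divided by 4. The smaller variance adds ACACA with PTPLA and PTPLA with ACSL1. The members were named through the study's list of differing genes, so a difference between their ratios, also from ACSL5, is not independent evidence. PTPLA reached the count minimum only through HG, so the pairs that hold it are no support. All intervals that join a pair of genes take the errors of both genes as independent, which pooled values cannot check. The log2 ratio of ACSL1 exceeded that of ACSL5 by 1.87 (95% interval 0.55 to 3.20), a 3.67-fold shift in the balance of the isoforms. In fragments, 333 were counted for ACSL1 per fragment of ACSL5 in HG (95% interval 177 to 627) and 90.2 in LG (95% interval 45.8 to 178). ACSL5 was thus 0.299% of the fragments of the pair in HG and 1.10% in LG. These are shares of fragments that were not divided by transcript length. The HG and LG intervals of the ratio meet at their ends, at 177 and 178, but lie apart with the variance divided by 4, at 243 to 457 in HG and 64.3 to 127 in LG.

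ACSL5 also stood below the other 3 members. ACACA exceeded it by 1.96 (95% interval 0.84 to 3.08), SLC25A1 by 1.58 (95% interval 0.40 to 2.75) and PTPLA by 3.62 (95% interval 1.55 to 5.69). Between ACACA, SLC25A1 and ACSL1 no pair had an interval without 0. ACACA exceeded ACSL1 by 0.09 (95% interval -0.96 to 1.14) and SLC25A1 by 0.39 (95% interval -0.46 to 1.23). Intervals of this width leave room for ratios that differ about as much as ACACA itself differed between the lines. PTPLA exceeded SLC25A1 by 2.04 on the log2 scale (95% interval of SLC25A1 minus PTPLA -3.98 to -0.11), but by 0.60 with a pseudocount of 10. That interval rests on the pseudocount of 1, which also narrows the error of PTPLA. Without a pseudocount the 95% interval of the PTPLA ratio itself was wider, 0.76 to 5.78 against 0.94 to 4.59. The exclusion of 0 for this pair therefore depends on the pseudocount.

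**Figure D3:**
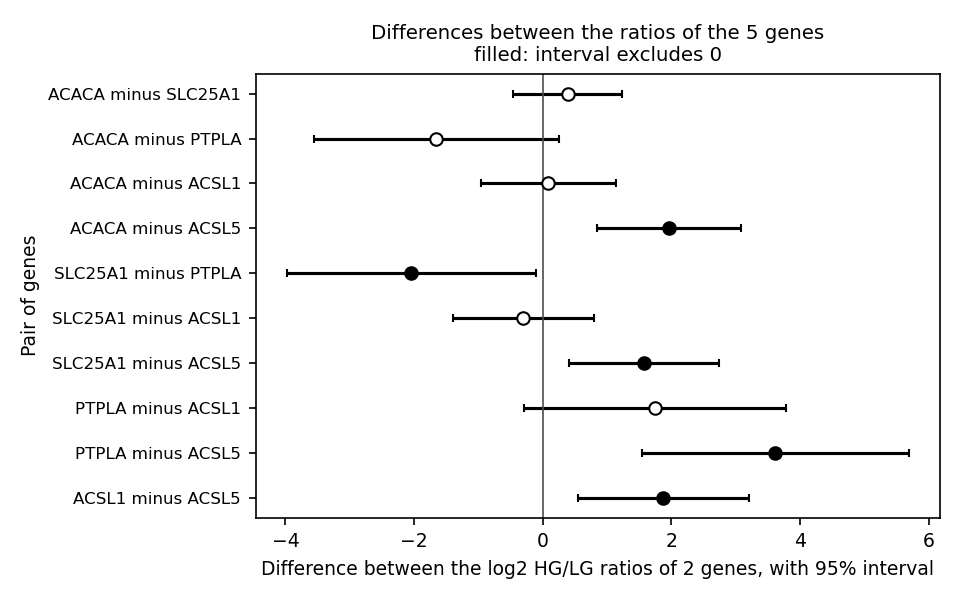
Difference between the log2 HG/LG ratios of each pair of the 5 genes, with 95% intervals from the 4 deposited variances, filled where the interval excludes 0. The 4 pairs that hold ACSL5 are filled, with a size from 1.58 to 3.62, and the other filled pair is SLC25A1 with PTPLA.

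Around the 5 genes, 8 lists of the same metabolism were read, from acetyl-CoA supply to fatty acid oxidation. Of their 155 symbols, 22 had a row that could be named, including the members, and 20 of these were tested. The study had picked all 22 from these birds as differing, and 61.9% of all loci that passed as deposited were on its list. Shares over all loci are therefore printed for scale and are not a fair background for these genes. Among the 15 that were tested and are not members, 5 passed with more fragments in HG and 0 with more in LG before centring, against 2.07% and 0.858% of all loci. The 5 were SCD, FADS2, CYB5A, HLCS and PPARG. After centring, SCD, FADS2 and CYB5A remained, against 0.992% of all loci higher in HG. The median log2 ratio of the 15 was 0.86.

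Desaturation held 3 of these calls. CYB5A, cytochrome b5, hands electrons to the fatty acid desaturases and was counted at 934 in HG against 329 in LG, with a centred log2 ratio of 1.24 (95% interval 0.67 to 1.81). FADS2, the delta-6 desaturase, was counted at 1839 against 387, at a log2 ratio of 2.25 (95% interval 1.68 to 2.82) before centring. It exceeded ACACA by 1.13 (95% interval of ACACA minus FADS2 -1.93 to -0.34) and ACSL1 by 1.22 (95% interval of ACSL1 minus FADS2 -2.28 to -0.16). SCD, at a log2 ratio of 7.33, stood above every gene of the lists. FADS1, the delta-5 desaturase, was counted at 324 against 178 and did not pass, at a log2 ratio of 0.86 (95% interval 0.19 to 1.52).

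The remaining genes of supply, activation and binding did not pass. ACSS3, a short chain acyl-CoA synthetase of mitochondria, was counted at 179 in HG against 98.2 in LG, at a log2 ratio of 0.86 (95% interval -0.03 to 1.75). SLC27A6, a fatty acid transport protein, was counted at 48.6 against 16.7, at a log2 ratio of 1.48 (95% interval 0.13 to 2.84). Log2 ratios were 0.80 (95% interval 0.17 to 1.43) for FABP3, the heart-type fatty acid binding protein, and 0.55 (95% interval -0.09 to 1.19) for ACBD5, an acyl-CoA binding protein of peroxisomes. IDH2, which yields NADPH in mitochondria, was listed at 0 in both lines. ACBD7, at 1.93 in HG against 5.99 in LG, was too low to be tested. Of the regulators, INSIG1, which holds SREBP in the endoplasmic reticulum, was counted at 228 against 73.5 and did not pass, at a log2 ratio of 1.62 (95% interval 0.44 to 2.80).

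Fatty acid oxidation, the opposite process, had 3 genes of 30 listed that could be named. None of them passed as deposited, after centring, or with the variance divided by 4 before centring. With that variance and centring together, HADH (-0.41) and DECR1 (-0.64) passed as higher in LG, against 7.9% of all loci, and HADHA did not. All 3 were named through the study's list of differing genes, as were the members. A difference between them and a member is therefore not independent evidence. HADHA, the alpha subunit of the mitochondrial trifunctional protein, was counted at 758 in HG against 840 in LG, at a log2 ratio of -0.15 (95% interval -0.94 to 0.65). HADH, the dehydrogenase for shorter chains, was counted at 345 against 383, at a log2 ratio of -0.15 (95% interval -0.75 to 0.44). DECR1, a reductase used in the oxidation of unsaturated fatty acids, was counted at 272 against 353, at a log2 ratio of -0.38 (95% interval -0.99 to 0.24). ACACA exceeded these genes by 1.26 (HADHA, 95% interval 0.29 to 2.22), 1.26 (HADH, 95% interval 0.45 to 2.07) and 1.49 (DECR1, 95% interval 0.66 to 2.31). ACSL1 exceeded DECR1 by 1.40 (95% interval 0.31 to 2.48) and HADHA by 1.17 (95% interval -0.02 to 2.37). ACSL5 differed from DECR1 by -0.47 (95% interval -1.63 to 0.68).

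**Figure D4:**
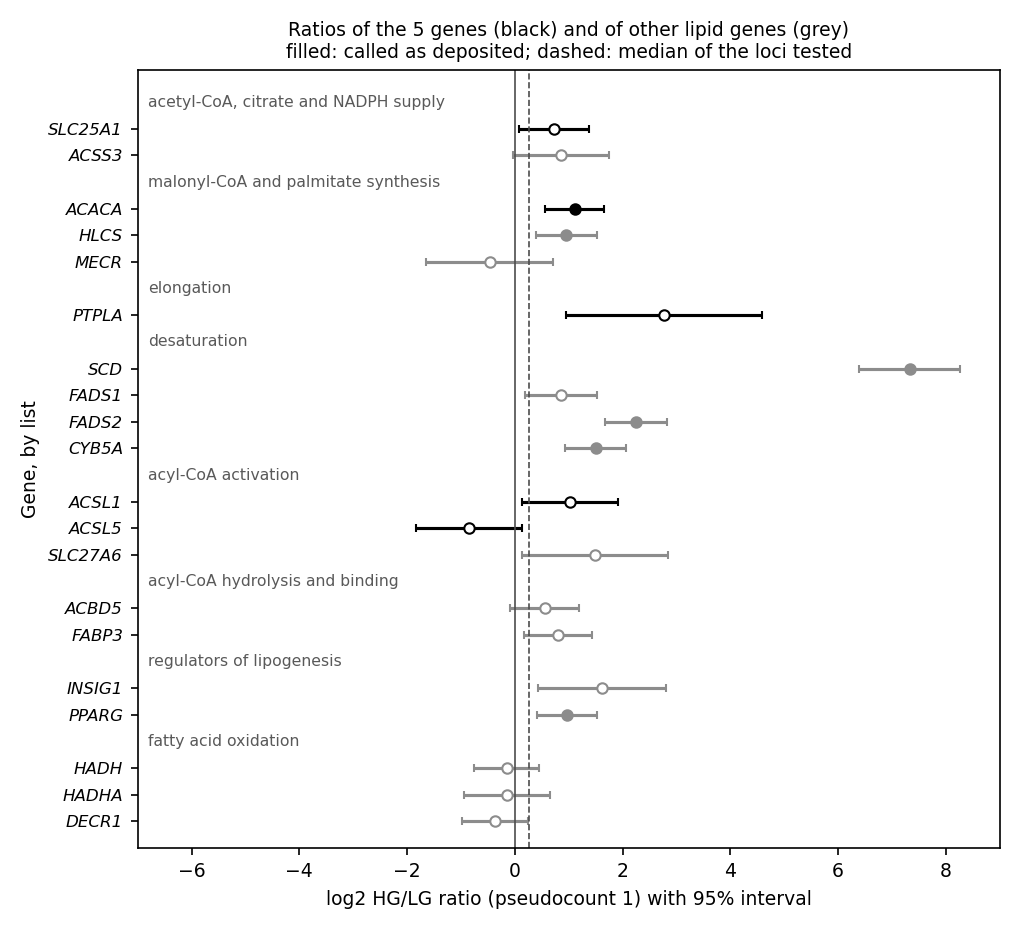
The log2 HG/LG ratio (pseudocount 1) with 95% interval of the 5 genes (black) and of the other genes of the 8 lists that were tested (grey), filled where the gene passed as deposited. The solid line is 0 and the dashed line the median of the loci tested (0.26). The 3 oxidation genes lie left of 0, and SCD (7.33) lies far to the right of all other genes.

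Of the 14 adipocyte markers on the list, 4 could be named. PPARG, the receptor that drives adipocyte differentiation, and GPD1, which makes glycerol 3-phosphate, had log2 ratios of 0.96 and 1.28. The 95% interval of GPD1 was 0.63 to 1.93. Both passed as deposited, against 2.07% of all loci higher in HG, but not after centring. PPARG also did not pass at a fold minimum of 2. PNPLA2, the adipose triglyceride lipase, was counted at 5366 in HG against 12188 in LG and did not pass as deposited. It passed as higher in LG after centring, against 1.19% of all loci, with a centred log2 ratio of -1.44 (95% interval -2.31 to -0.58). With the variance divided by 4 it passed with and without centring. DGAT2 was listed at 0 in both lines. The log2 ratio of ACACA exceeded that of PPARG by 0.15 (95% interval -0.63 to 0.93), and that of ACSL1 exceeded it by 0.06 (95% interval -0.99 to 1.12). From bulk fat, fewer cells of a type and less RNA per cell cannot be told apart, and the part of adipocyte content in the ratios of ACACA and ACSL1 was not tested.

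The sources used here leave unsaid if a deposited variance describes a single library or the mean of the birds. In the first case it has to be divided by 4, and all 5 members then passed, both before and after centring. They were chosen from the study's list of differing genes in these birds, so this outcome was largely set in advance and is no support. The share of all loci that passed rose as well. Before centring it was 22.2% higher in HG and 4.87% higher in LG (27.1% in all). After centring it was 8.24% and 7.9% (16.1% in all). These shares are printed for scale and are not a fair background for genes from that list. With the variance divided by 4, a fold of 1.27 sufficed for ACACA and 3.00 for PTPLA.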

How the data were processed

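Libraries of abdominal fat RNA were made from 8 birds, 4 per line, and run in 2 lanes each. According to the Methods, reads were trimmed and aligned to Galgal4 with TopHat 1.3.3, then assembled and quantified with Cufflinks and compared with Cuffdiff. Bowtie 0.12.7 and Cuffdiff 2.0.2 are named in the submitters' processing notes only, so the sources differ on the quantifying tool. The authors deposited an estimated count per gene and line, not divided by gene length, with its model variance. How lines were scaled is not given in the sources used here. The kit keeps strand, but whether counting used it is not stated, so reads shared with overlapping genes or near copies may be split. The column totals were 4421254 (HG) and 3365950 (LG). Of 17854 loci, 3659 were listed at 0 for HG and LG alike, and at 40 the status was not OK.

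Loci with counts above 0 in both lines and at least 10 in the higher one (10484) were tested. The log count ratio over its delta-method standard error was read against the normal distribution (two-sided, Benjamini-Hochberg adjusted). Adjusted p values are not printed, as no bird has its own value. Printed ratios and their 95% intervals have a pseudocount of 1, and intervals do not cover the scaling. Alternatives were median centring, column totals, variances divided by 4 or with Poisson variance added, other fold and count minimums, every status and pseudocounts of 0 and 10. Centring combined with variances divided by 4, and differences of ratios to genes other than the members, were chosen after seeing the data. The test was tried on simulated counts.

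The members, the lists and the rule for named genes (members, called genes, the extremes of each list and paralogs with a row) were chosen with earlier results of these data known. Markers of muscle, liver and fat, and the remaining tested genes of the lists, were named after their values were seen. Symbols came from 1998 rows of the study's list of called genes, of which 1993 identifiers were distinct. Only 1511 of these had a row among the counts, and 1420 had both a row and a symbol. A gene the study called can therefore lack a match here. Listed genes without a match, FASN, ACACB and ACSL6 among them, were not analysed here. RefSeq annotation was used for the name HACD1. Python 3.11.15, pandas 2.3.3, numpy 2.4.6, scipy 1.17.1 and matplotlib 3.10.9 were used.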

Additional observations from a re-analysis of the deposited data

How the results depend on the processing

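No paired analysis was possible because each line has a single pooled value per gene, and for the same reason no bird could be left out. The direction of all 5 members was the same after centring, with column totals and with pseudocounts of 0 and 10. The other alternatives leave the ratio itself unchanged. PTPLA was not tested at the count minimum of 50. ACACA no longer passed after centring (0.85) or with column totals (0.72), and passed under every other alternative. With the deposited variance divided by 4, SLC25A1 (0.73), PTPLA (2.77), ACSL1 (1.02) and ACSL5 (-0.85) passed, also after centring (0.46, 2.51, 0.76 and -1.11). The number of loci that passed rose from 307 to 2841 with that variance, and was 1692 when centred as well. Of the loci that passed, 70.7% were higher in HG as deposited, 45.4% after centring, 30.9% with column totals and 82.0% with the variance divided by 4. With a pseudocount of 10, the differences that involve PTPLA shrank to -0.20 for ACACA minus PTPLA, -0.60 for SLC25A1 minus PTPLA, 0.28 for PTPLA minus ACSL1 and 2.06 for PTPLA minus ACSL5. The other differences moved by less than their standard error.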

Other observations

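The deposited SD of each member stood close to the median of all loci with a like count. For loci whose count lay within 2-fold of that of ACACA, the median relative SD was 11.8% in HG (858 loci) and 15.9% in LG (1616 loci), against 11.8% and 15.4% for ACACA itself. For ACSL1 it was 19.5% in HG (26 loci) and 24.9% in LG (52 loci), against 19.1% and 25.2%. Over the 10 values of the 5 genes and 2 lines, the distance from that median was between 0.0230 and 1.22 percentage points. The dispersion part supplied by the quantification model made up from 97.3% (SLC25A1 in LG) to 100% of each variance. Closeness to loci with as many fragments is therefore a trait of that model. It does not show how far the birds differed in these genes. No part of the variance of any member came from isoform assignment.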
